A study of Mus musculus with 48 samples.

Results

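The 9 genes described here encode the enzymes that turn squalene into cholesterol, with squalene synthase at their head: Fdft1, Sqle, Lss, Cyp51, Tm7sf2, Msmo1, Nsdhl, Hsd17b7 and Dhcr7. They were chosen by name, each found by the Ensembl identifier of its mouse symbol, and all 9 are among the 55416 genes counted in every sample. The data are strand-specific poly(A) RNA-seq read counts from 48 mouse livers, 1 library per animal, in 6 groups of 8. In the knock-in study the mice carried the W441R substitution in LXRα, made by CRISPR-Cas9 and acting as a dominant negative, on neither allele (DN:WT), on 1 allele (DN:HET) or on both (DN:HOM), in male mice. In the knockout study LXRα, encoded by Nr1h3, was intact (KO:WT), deleted on 1 allele (KO:HET) or on both (KO:HOM). Both studies bred heterozygous parents, took C57BL/6 mice at 8 weeks of age and fed them a western diet for 8 weeks, so every group, the wild-types included, had eaten the diet until 16 weeks of age. Each of the alleles is present in every tissue of the animal, and the lines were kept at different sites, the knockout after backcrossing to C57BL/6, so changes were tested against the wild-type of the same study, and other values of the studies are given side by side without a test.

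Cholesterol is built from acetyl-CoA through mevalonate to farnesyl diphosphate, and squalene synthase commits that precursor to sterols. Squalene is then oxidised and folded into lanosterol, which loses methyl groups and has its double bonds moved and reduced until cholesterol is left. When the endoplasmic reticulum of a hepatocyte is low in cholesterol, SCAP escorts SREBP2 to the Golgi for cleavage and the released factor switches on most genes of the route; when cholesterol is high, INSIG proteins hold the complex back. LXRα is the counterpart of that system, a nuclear receptor that binds oxysterols and drives genes for sterol export and for fatty acid synthesis.

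Total reads assigned to genes ranged from 5332897 to 16961379 per liver, with a median of 15879972, and 2 livers, 1 KO:HET and 1 KO:HOM, fell under 10000000. Counts are given here as CPM, counts per 1000000 reads assigned to genes, after TMM scaling of the libraries. Nr1h3 was checked first. It lay at 91.8 ± 5.04 CPM (SD, n = 7) in DN:WT, 92.7 ± 4.58 (n = 8) in DN:HET and 72.8 ± 3.56 (n = 7) in DN:HOM, and a gene count cannot read a single substitution. Its log2 change in DN:HOM was -0.32 (adjusted p = 1.5e-05) and turned to 0.11 (adjusted p = 0.13) when scaled by library totals only. In the knockout study it stepped down from 93.6 ± 8.82 through 59.2 ± 5.63 to 27 ± 1.99 CPM (n = 8 each), with no overlap between KO:HOM, 25.3 to 31.1 CPM, and KO:WT, 81.5 to 108 CPM. The 8 hepatocyte markers were present in every group. Their summed level lay at 60321 to 76317 CPM in DN:WT and at 32588 to 40482 CPM in DN:HOM, with 6 of 8 lower in the test. It lay at 68279 to 94081 CPM in KO:WT and at 47565 to 69924 CPM in KO:HOM, again with 6 of 8 lower. Across all genes tested, 30% were called lower in DN:HOM and 7.87% in KO:HOM.

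Of the livers, 2 carried profiles that went against their labels. The library labelled DN:WT animal 10 was nearer to the DN:HOM mean than to its own group for 90.8% of the 9292 genes that differed between those groups, and the library labelled DN:HOM animal 12 was nearer to the DN:WT mean for 90.5%, while the other 14 livers of these groups ranged from 4.77% to 19.4%. These genes were chosen by the comparison without both livers. Among the 9 enzymes, both libraries sat nearer the opposite group for 8. A set of source values that the study gives for bile acid genes in the knock-in livers leaves the same pair out without a stated reason. The study's caption for its RNA-seq heatmap gives n = 8. Whether the pair enters that heatmap or its other analyses was not examined. The main values below rest on the other 46 livers. The calls among the 9 over all 48 are given for each comparison, and other values over 48 only where stated.

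The stretch of DNA in front of these genes was read from the RefSeq promoter table, build GRCm38.p6, which matched 7 of the 9 by symbol, not Fdft1 and Sqle. Of these, 4 are printed, each the 250 bases before the annotated start, 5′ to 3′ on the gene's own strand: Tm7sf2, Lss and Hsd17b7, whose transcripts fell further in DN:HOM than in KO:HOM over the 46 livers, and Cyp51, which fell the most in KO:HOM. Capitals mark CCAAT boxes, read as CCAAT or, on the other strand, as its reverse complement.
Tm7sf2, chr19:6067851-6068100, minus strand: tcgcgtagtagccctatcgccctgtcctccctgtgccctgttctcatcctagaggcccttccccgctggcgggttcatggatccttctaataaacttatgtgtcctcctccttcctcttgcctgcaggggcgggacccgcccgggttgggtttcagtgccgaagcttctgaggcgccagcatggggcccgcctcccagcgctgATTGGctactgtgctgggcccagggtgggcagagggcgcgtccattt
Lss, chr10:76531355-76531604, plus strand: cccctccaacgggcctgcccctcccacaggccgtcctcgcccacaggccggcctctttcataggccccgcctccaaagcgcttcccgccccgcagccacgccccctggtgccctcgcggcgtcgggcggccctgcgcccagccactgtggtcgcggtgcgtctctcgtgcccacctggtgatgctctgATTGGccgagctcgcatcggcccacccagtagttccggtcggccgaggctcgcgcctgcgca
Hsd17b7, chr1:169969206-169969455, minus strand: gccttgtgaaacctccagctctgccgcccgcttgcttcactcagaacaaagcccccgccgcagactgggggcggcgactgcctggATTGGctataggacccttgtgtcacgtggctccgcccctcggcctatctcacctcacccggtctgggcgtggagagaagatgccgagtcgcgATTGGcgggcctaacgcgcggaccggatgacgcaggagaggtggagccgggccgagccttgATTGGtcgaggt
Cyp51, chr5:4104698-4104947, minus strand: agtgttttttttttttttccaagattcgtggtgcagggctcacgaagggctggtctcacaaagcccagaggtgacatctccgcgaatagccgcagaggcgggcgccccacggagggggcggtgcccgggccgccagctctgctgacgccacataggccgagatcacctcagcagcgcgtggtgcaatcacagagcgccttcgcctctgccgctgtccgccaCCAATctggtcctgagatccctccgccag

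A CCAAT box, the letters on which the factor NF-Y binds, was found on either strand in at least 1 promoter of all 7 genes that matched, against 33.8% of 32851 promoters of the same length in the table. The GC box GGGCGG, the core of Sp1 sites, was also found in all 7, against 32.7% of promoters. Counted by promoter, since Dhcr7 has 3 annotated starts, 7 of 9 held the first and 8 of 9 the second. The promoters they are set against were not matched for GC content, which ran from 44.8% to 73.6% in these 9. The part of GC content in the shares was not tested. Hsd17b7 and Msmo1 held 3 CCAAT boxes each. The SREBP element TCACCCCAC, present in 0.496% of promoters, and its looser form TCACNCCAC, present in 1.05%, were found in none of the 7. Nor was the DR4 repeat that LXR binds, sought only as exact copies of AGGTCA and present in 0.0152%. Elements this rare would be missing from most sets of 7 genes, so these absences carry little information. Both strands were searched, and each match of the strict SREBP element is also one of the looser. These are matches of letters in 250 bases, and their absence says nothing of the factor elsewhere.

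The first comparison asked how the enzymes' transcripts differed in livers homozygous for the dominant negative receptor. In DN:HOM, 8 of the 9 were lower than in DN:WT, from 1.63-fold for Fdft1 to 4.01-fold for Tm7sf2, and Sqle alone did not pass the test. Across all 15711 genes tested, 30% were called lower in this comparison. The median log2 change of the 9 was -1.33, against -0.01 for all genes tested. For the same 8 enzymes every DN:HOM liver lay below every DN:WT liver, which 15.8% of all tested genes did. With all 48 livers the same 8 passed the test, against a background of 25%, the median log2 change was -0.96, and each of the 9 had overlapping groups.

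**Figure D1:**
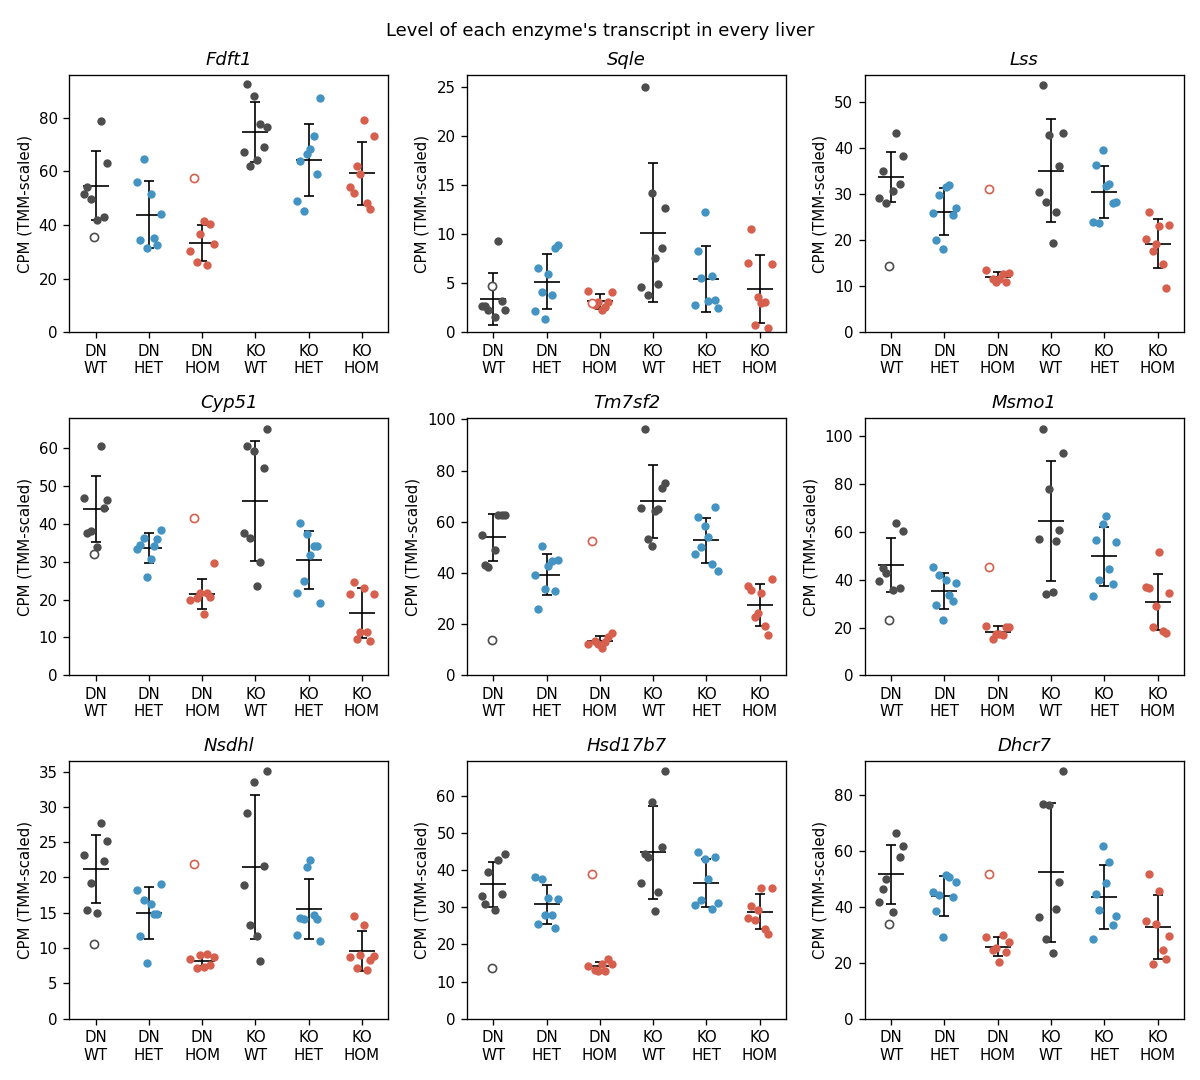
Level of each transcript in CPM (y axis, linear from 0) in every liver of the 6 groups (x axis); filled points are the 46 livers used, open points DN:WT animal 10 and DN:HOM animal 12, and bars the mean and SD over the filled points. For 8 enzymes the filled DN:HOM points lie below all filled DN:WT points, and the open points are nearer the opposite group's mean.

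At the head of the branch, Fdft1 encodes squalene synthase, which joins farnesyl diphosphate into squalene. Its level ranged from 42.0 to 78.9 CPM in the DN:WT livers, with a median of 51.7, and from 24.9 to 41.6 CPM in DN:HOM, with a median of 32.8. The groups came close but did not overlap, and the log2 change was -0.70 ± 0.16 (SE, adjusted p = 0.00017). Scaled by library totals only, it was -0.28 (adjusted p = 0.093), a scaling that puts the median of all genes at 0.42. Sqle encodes squalene epoxidase, which oxidises squalene and is a well-known control point of the route. It had 4 to 372 reads per liver, with a median of 60. The DN:WT livers ranged from 1.55 to 9.34 CPM with a median of 2.62, and the DN:HOM livers from 2.21 to 4.16 CPM with a median of 3.06. The groups overlapped throughout, and the log2 change of -0.11 had a 95% interval from -1.04 to 0.82 (adjusted p = 0.86). The medians ran the other way, with DN:WT animal 17 at 9.34 CPM and the other DN:WT livers used at 3.14 or less. With library size alone the log2 change of Sqle turned to 0.33 (adjusted p = 0.55).

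Lanosterol synthase, encoded by Lss, closes the ring system. Lss fell from a range of 28.1 to 43.4 CPM (median 32.3) to one of 10.97 to 13.4 CPM (median 11.7), a log2 change of -1.48 ± 0.17 (SE, adjusted p = 7.4e-10). The coefficient of variation in DN:HOM was 7.98% in the 7 livers and 47.5% with animal 12 included. Cyp51 encodes lanosterol 14α-demethylase. It ranged from 33.9 to 60.5 CPM in DN:WT (median 44.3) and from 16.1 to 29.6 CPM in DN:HOM (median 20.6), and the log2 change was -1.02 ± 0.20 (SE, adjusted p = 3.6e-05). The highest DN:HOM liver, animal 34 at 29.6 CPM, stood above the next at 21.9 CPM.

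Tm7sf2, which encodes the reductase of the C14 double bond left by CYP51, fell the most of the 9. The DN:WT livers held 42.5 to 62.8 CPM (median 54.7) and the DN:HOM livers 10.8 to 16.5 CPM (median 13.15), and the log2 change was -2.002 ± 0.16 (SE, adjusted p = 4.7e-14). Over 48 livers it was -1.43 ± 0.25 (SE, adjusted p = 3.8e-05). Tm7sf2 shares 532 exon bases, 10.8% of its merged exons, with Vps51 on the same strand, and reads there cannot be given to either gene. Vps51 itself was at 16.8 ± 1.32 CPM (SD, n = 7) in DN:WT and 12.9 ± 1.48 CPM (n = 7) in DN:HOM, a log2 change of -0.37 (adjusted p = 5.7e-05) that turned to 0.07 (adjusted p = 0.47) with library size alone.

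The C4 demethylation steps moved alike. Msmo1, the C4 methyl oxidase, fell from 35.9 to 63.7 CPM (median 42.8) to 15.1 to 20.6 CPM (median 17.4), a log2 change of -1.33 ± 0.22 (SE, adjusted p = 1.2e-06). Nsdhl, the dehydrogenase that removes the carboxyl group left by the oxidase, fell from 14.95 to 27.7 CPM (median 22.3) to 7.15 to 9.19 CPM (median 8.40), a log2 change of -1.35 ± 0.23 (SE, adjusted p = 2.1e-06). Hsd17b7, the 3-ketosteroid reductase that completes the cycle, fell from 29.2 to 44.5 CPM (median 33.7) to 12.8 to 15.98 CPM (median 14.3), a log2 change of -1.35 ± 0.14 (SE, adjusted p = 3.6e-11). In all 3 the DN:HOM livers were less spread than the DN:WT livers, with coefficients of variation of 8.35% to 11.95% against 16.5% to 24.5%, an order that turned over 48 livers (45.2% to 51.8% against 29.1% to 30.6%). At the end of the route, Dhcr7, the reductase of 7-dehydrocholesterol, fell from 38.0 to 66.5 CPM (median 49.99) to 20.4 to 29.9 CPM (median 25.3), a log2 change of -0.99 ± 0.22 (SE, adjusted p = 0.00016).

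Markers of other liver cells also changed in DN:HOM, in both directions. Their counts are given without the share of all genes called higher, which is not given here. In DN:HOM 7 of 8 stellate cell and fibroblast markers and 6 of 8 macrophage markers were higher, with 2 macrophage markers lower; the summed level of the first list was 581 to 786 CPM against 118 to 175 CPM in DN:WT, and of the second 895 to 1492 CPM against 181 to 360 CPM. All 4 cholangiocyte markers were higher too, at 47.0 to 62.7 CPM in sum against 6.54 to 10.2 CPM, as were 3 of 5 T cell markers, at 3.35 to 5.91 CPM against 1.81 to 3.78 CPM. Of 4 endothelial markers 1 was higher and 2 were lower, and 1 of 4 B cell markers was lower. The share of all genes called lower was 30%. In such bulk tissue fewer hepatocytes and less RNA per hepatocyte cannot be told apart, and the part of either in the enzymes' change was not tested.

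Most enzymes had intermediate levels in the heterozygous knock-in livers. None of the 9 passed the test in DN:HET by edgeR's quasi-likelihood test, where 2.3% of all genes were called in either direction; 4 had an unadjusted p under 0.05, and DESeq2 called none. All but Sqle had a negative log2 change, from -0.24 to -0.50, and the median of the 9 was -0.37. Tm7sf2 was nearest to a call, at 39.3 ± 8.06 CPM (SD, n = 8) against 53.9 ± 9.09 CPM (n = 7) in DN:WT, with a log2 change of -0.46, a 95% interval from -0.75 to -0.17 and an adjusted p of 0.091. Sqle had a mean of 5.16 ± 2.79 CPM (SD, n = 8) in DN:HET against 3.40 ± 2.66 CPM (n = 7) in DN:WT (log2 change 0.60, adjusted p = 0.64). The mean level stepped down from DN:WT through DN:HET to DN:HOM in 8 of the 9 enzymes, an order that 32.9% of all tested genes had. Of the marker lists, 3 of 8 macrophage and 4 of 5 T cell markers were higher in DN:HET. Over 48 livers the background was 0.25%, none of the 9 was called and none had an unadjusted p under 0.05.

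The second comparison asked the same of livers without the receptor. In KO:HOM 8 of the 9 were again lower than in KO:WT, from 1.56-fold for Hsd17b7 to 2.77-fold for Cyp51, against 7.87% of all genes tested called lower, but the missing gene was now Fdft1. The median log2 change of the 9 was -1.08, against -0.02 for all genes tested. Most groups overlapped: only for Tm7sf2 was every KO:HOM liver below every KO:WT liver, as for 0.369% of tested genes. Over 48 livers the errors were larger (SE of Tm7sf2 0.25 against 0.15) and 7 were called, Sqle being lost at an adjusted p of 0.064, against a background of 4.12%.

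Fdft1 ranged from 61.9 to 92.7 CPM in KO:WT (median 72.7) and from 46.1 to 79.3 CPM in KO:HOM (median 56.6), with a log2 change of -0.34, a 95% interval from -0.63 to -0.05 and an adjusted p of 0.096. Sqle varied more than any other of the 9 in KO:HOM, from 0.39 to 10.5 CPM (median 3.31), and ranged from 3.77 to 25.0 CPM (median 8.07) in KO:WT. Its log2 change of -1.17 ± 0.43 (SE) passed the threshold narrowly, at an adjusted p of 0.049, and lost it in 6 of 8 other settings, with adjusted p from 0.043 to 0.095 over all 8. Lss ranged from 19.3 to 53.8 CPM in KO:WT and from 9.66 to 26.2 CPM in KO:HOM (medians 33.4 and 19.7), a log2 change of -0.87 ± 0.16 (SE, adjusted p = 9.7e-05).

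Cyp51 fell the most in KO:HOM, from 23.7 to 65.1 CPM (median 46.2) to 9.01 to 24.7 CPM (median 16.4), and its groups overlapped by a narrow margin. The log2 change was -1.47 ± 0.20 (SE, adjusted p = 1.1e-06). Tm7sf2 fell from 50.7 to 96.3 CPM (median 65.2) to 15.9 to 37.8 CPM (median 28.1), a log2 change of -1.31 ± 0.15 (SE, adjusted p = 3.6e-08), while its neighbour Vps51 had 14.3 ± 1.04 CPM (SD, n = 8) in KO:WT and 15.4 ± 1.80 CPM (n = 8) in KO:HOM. Msmo1 ranged from 34.03 to 103 CPM in KO:WT (median 58.97) and from 17.7 to 51.6 CPM in KO:HOM (median 31.7), Nsdhl from 8.19 to 35.1 CPM (median 20.3) and from 6.84 to 14.6 CPM (median 8.79), and Hsd17b7 from 29.1 to 66.8 CPM (median 43.9) and from 22.95 to 35.4 CPM (median 28.3). The log2 changes of these C4 enzymes were -1.08 ± 0.20 for Msmo1 (SE, adjusted p = 0.00012), -1.16 ± 0.21 for Nsdhl (SE, adjusted p = 0.00011) and -0.64 ± 0.13 for Hsd17b7 (SE, adjusted p = 0.00027). In each of them some KO:HOM livers reached the level of the lower KO:WT livers. Dhcr7 ranged widely in the wild-type, 23.5 to 88.8 CPM (median 44.1) in KO:WT against 19.6 to 51.7 CPM (median 31.7) in KO:HOM, and a log2 change of -0.68 ± 0.21 (SE, adjusted p = 0.015). Fitted on the knockout study alone its adjusted p was 0.068, and with library size alone 0.052.

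**Figure D2:**
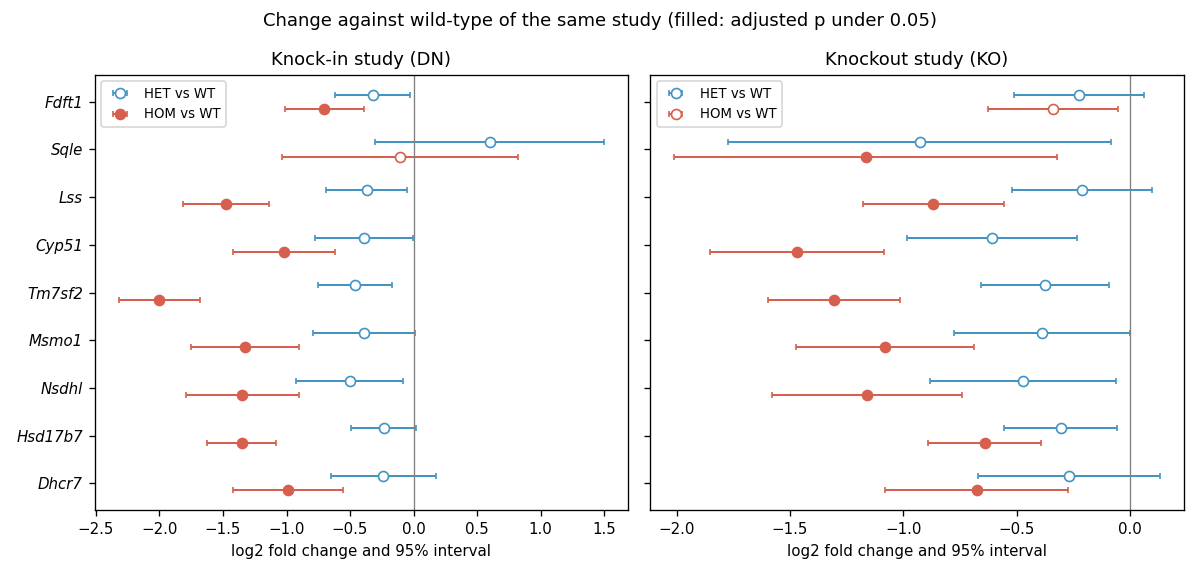
Log2 fold change with its 95% interval (x axis) of each enzyme (y axis, pathway order) against wild-type of the same study, homozygous in red and heterozygous in blue; filled points have an adjusted p under 0.05. Homozygous points lie to the left of 0 in both panels, from -0.11 to -2.002 in the knock-in and from -0.34 to -1.47 in the knockout study, and no heterozygous point is filled.

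Of the markers of other cells, 4 of 8 stellate cell and fibroblast markers were higher in KO:HOM, at 147 to 317 CPM in sum against 108 to 272 CPM in KO:WT, 5 of 8 macrophage markers were higher and 2 lower, all 5 T cell markers were higher, at 5.29 to 21.98 CPM in sum against 1.86 to 4.77 CPM, and none of the 4 cholangiocyte markers was called. The share of all genes called higher in KO:HOM is not given here. The part of these cells in the enzymes' change was not tested here either. In KO:HET none of the 9 was called by edgeR, against 0.0191% of all genes in either direction; 5 had an unadjusted p under 0.05, and DESeq2 called none. All 9 had a negative log2 change, from -0.21 for Lss to -0.93 for Sqle, with a median of -0.38. Cyp51, which fell the most in KO:HOM, had a mean of 30.4 ± 7.63 CPM (SD, n = 8) in KO:HET against 45.9 ± 15.8 CPM (n = 8) in KO:WT, and its interval ran from -0.98 to -0.23 (adjusted p = 0.56). The means of all 9 stepped down from KO:WT through KO:HET to KO:HOM, an order that 25.7% of tested genes had. Over 48 livers none was called, 2 had an unadjusted p under 0.05, and the background was 0.0192%.

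Whether the homozygous change differed between the studies was tested as the DN change minus the KO change. Tm7sf2 (-0.70, 95% interval -1.12 to -0.28, adjusted p = 0.0097), Hsd17b7 (-0.71, -1.08 to -0.34, adjusted p = 0.0025) and Lss (-0.61, -1.06 to -0.15, adjusted p = 0.037) fell further in DN:HOM, 3 of 9 against 18.3% of all genes tested. Over 48 livers none was called, with log2 differences of -0.13 for Tm7sf2, -0.33 for Hsd17b7 and -0.26 for Lss, against 6.42% of all genes; the result rests on leaving out the pair of livers. With library size alone none of the 3 was called either, and Cyp51 passed in the other direction at 0.76 (adjusted p = 0.025).

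**Figure D3:**
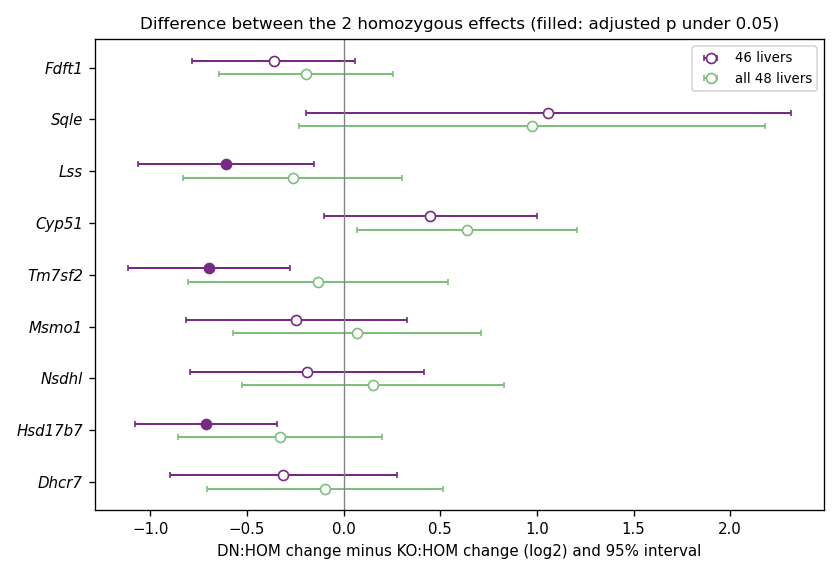
Difference between the homozygous changes, DN:HOM minus KO:HOM on the log2 scale, with its 95% interval (x axis) for each enzyme (y axis); purple is the fit on 46 livers, green on all 48, and filled points have an adjusted p under 0.05. Lss, Tm7sf2 and Hsd17b7 are filled on 46 livers, and no point is filled on 48.

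For the other enzymes the difference did not pass the test, and the intervals were wide. Nsdhl had -0.19 (95% interval -0.79 to 0.42), Msmo1 -0.25 (-0.82 to 0.33), Dhcr7 -0.31 (-0.90 to 0.28) and Fdft1 -0.36 (-0.78 to 0.06). Cyp51, at 0.45 (-0.10 to 0.998), and Sqle, at 1.06 (-0.19 to 2.31), had the opposite sign. For the heterozygous changes no difference was called, against 0.00636% of all genes over 46 livers and 0.0064% over 48. Sqle had the widest gap there, 1.53 with an interval from 0.30 to 2.76 and an adjusted p of 0.98, and it was the only one with an unadjusted p under 0.05; DESeq2 called none.

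Most genes on either side of the 9 in the pathway were lower as well. Of all genes tested, 30% were called lower in DN:HOM and 7.87% in KO:HOM, and over 48 livers 25% and 4.12%. Of 3 further genes of the sterol branch, all 3 were lower in DN:HOM and 2 in KO:HOM. These were Ebp, the sterol isomerase (log2 change -1.10 and -0.39), Sc5d, the C5 desaturase (-1.20 and -0.66), and Erg28, a scaffold of the C4 demethylating enzymes. Erg28 passed in DN:HOM (-0.46) and not in KO:HOM (-0.25), the difference not being called (adjusted p = 0.23). Of 7 mevalonate enzymes 6 were lower in either study, with Mvk not called in either (-0.28, adjusted p = 0.056, and -0.33, adjusted p = 0.052) and called lower in DN:HOM with counts of both strands (0.043) and in KO:HOM with DESeq2 (0.049). Fdps, which makes the farnesyl diphosphate that FDFT1 consumes, fell the most of these in both (-2.48 and -2.12). It was the one of them called in DN:HET (-1.15, adjusted p = 0.026), where 2.3% of all genes were called in either direction. That call was lost over 48 livers (adjusted p = 0.33). Fdps had few reads, at 0.815 CPM per kb of merged exons in DN:WT, 0.368 in DN:HET and 0.144 in DN:HOM. In the knockout study it had 0.627 in KO:WT and 0.137 in KO:HOM. Over 48 livers 3 of 3 and 6 of 7 were still called lower in DN:HOM, and 2 of 3 and 5 of 7 in KO:HOM, Hmgcs1 (adjusted p = 0.12) being lost. The Hmgcs1 call in KO:HOM, at an adjusted p of 0.04, was also lost in 5 of the 7 other settings (0.058 to 0.096). With library size alone Mvk in DN:HOM turned to 0.15, and Erg28 (-0.03) was no longer called there.

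Among 5 genes of sterol regulation and transport, Srebf2, which encodes SREBP2, was at -0.05 (adjusted p = 0.63) in DN:HOM and was lower in KO:HOM, at -0.29 (adjusted p = 0.0096). The difference was not called (adjusted p = 0.12), and with library size alone the KO:HOM value was -0.17 (adjusted p = 0.15). Its direction in DN:HOM turned with the scaling, to 0.03 with upper-quartile scaling and 0.38 with library size alone, where it was called higher (adjusted p = 0.00023). Insig1 (-2.51 and -1.10) and Stard4, a sterol carrier (-1.71 and -1.15), were lower in both. Scap (-0.85 and -0.17) and Insig2 (-1.06 and -0.24) were lower in DN:HOM and not called in KO:HOM; the difference passed the test for Scap (adjusted p = 9.2e-06, and 0.055 over 48 livers) and not for Insig2 (adjusted p = 0.055). In all 4 of these 5 were lower in DN:HOM and 3 in KO:HOM, over 46 livers and over 48. The shares of all genes called lower were 30% and 7.87% over 46 livers, and 25% and 4.12% over 48.

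How the enzymes vary among livers of 1 genotype was described from each liver's deviation from its group mean, on the log2 scale, over 46 livers. All 36 pairs of the 9 had a positive correlation, with a median Pearson r of 0.66, against a median of 0.013 over all pairs of 8240 genes of at least 10 CPM, a lowest of 0.23 for Fdft1 with Sqle and a highest of 0.84 for Msmo1 with Dhcr7. The points share their library, and no test was made. In 28 of the 46 livers, at least 8 or at most 1 of the 9 lay above the group mean. Of the livers with all 9 above, KO:WT animals 5 and 34 and DN:WT animal 17 stood highest, by a mean of 0.63, 0.53 and 0.54, and of those with none above KO:WT animal 31, DN:HET animal 14 and KO:HOM animal 27 stood lowest, with means of -0.57, -0.59 and -0.78. Lss followed the other members most closely (r = 0.89 with their mean) and Fdft1 least (0.46) over the 46 livers and in the knockout study (0.93 and 0.47), while within the knock-in study Nsdhl was highest (0.85) and Sqle lowest (0.51).

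**Figure D4:**
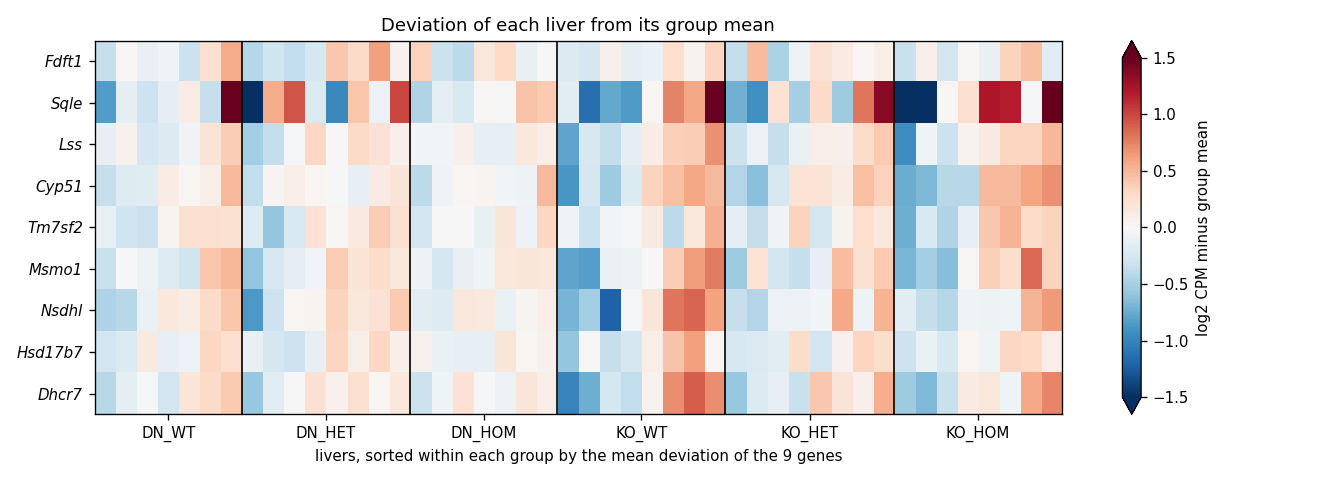
Deviation of each liver from its group mean in log2 CPM (colour, red above and blue below, saturated past 1.5) for the 9 enzymes (rows) in 46 livers (columns), sorted within each group by the mean of the 9. Columns tend to hold 1 colour from top to bottom, and in 28 of 46 at least 8 or at most 1 of the enzymes are above the mean.

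The median r was 0.56 in the 22 livers of the knock-in study, where the lowest pair, Sqle with Hsd17b7, had 0.05, and 0.69 in the 24 of the knockout study. The median SD of log2 CPM over the 9 enzymes was 0.19 in DN:HOM, 0.30 in DN:WT and 0.31 in DN:HET, against 0.54 in KO:WT, 0.36 in KO:HET and 0.46 in KO:HOM. With all 8 livers of a group it was 0.49 in DN:HOM and 0.46 in DN:WT, so the low value in DN:HOM rests on leaving out animal 12, and no difference in spread was tested. Sqle was the most variable, with an SD of 0.32 in DN:HOM and 1.51 in KO:HOM.

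Deviations were compared with the mean of the 9 for 8232 other genes with a mean of at least 10 CPM. Those most alike included Rdh11, a retinol dehydrogenase (r = 0.91), Pmvk, phosphomevalonate kinase (0.87), and Fads1, the Δ5 fatty acid desaturase (0.86). Ugt1a5 of the Ugt1a cluster, whose overlaps with its neighbours were not examined, had 0.85. Next were Acacb, acetyl-CoA carboxylase 2 (0.83), Cyb5r3, cytochrome b5 reductase (0.83), and Slc25a1, the mitochondrial citrate carrier (0.83). Acsl5, an acyl-CoA synthetase (0.81), and H2-Q10 (0.80) came after these. Rdh11 had an r of 0.84 within the knock-in and 0.93 within the knockout study. The 3 most opposed were Gm15638 (-0.75), Hc, complement C5 (-0.71), and Slc17a3 (-0.70). Other pathway genes stood near the top of that order as well, Sc5d at rank 13, Insig1 at 14 and Srebf2 at 20, while Ebp was at 958 and Scap at 5054. Mvk, Mvd, Idi1 and Fdps were under 10 CPM and not ranked.

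Levels of different genes were compared per length. Per kb of merged exons in DN:WT, the order was Fdft1 (11.4 ± 2.70 CPM per kb, SD, n = 7), Tm7sf2 (10.96 ± 1.85), Cyp51 (7.41 ± 1.48), Hsd17b7 (7.08 ± 1.17), Dhcr7 (6.31 ± 1.29), Nsdhl (5.73 ± 1.31), Msmo1 (5.19 ± 1.27), Lss (2.98 ± 0.480) and Sqle (0.383 ± 0.300). Neighbours from Cyp51 to Msmo1, and Fdft1 with Tm7sf2, lay within 1 SD of each other. Per kb of the canonical transcript, a length chosen after seeing the data, Tm7sf2 led (36.2 ± 6.09), Msmo1 (17.7 ± 4.32), Dhcr7 (17.5 ± 3.59) and Fdft1 (15.7 ± 3.71) followed, and Lss (5.30 ± 0.855) and Sqle (1.21 ± 0.948) stayed last. Sqle was the lowest by both lengths in KO:WT as well. The later enzyme Sc5d was far above all 9, at 100.2 ± 17.5 CPM per kb of merged exons in DN:WT.

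**Figure D5:**
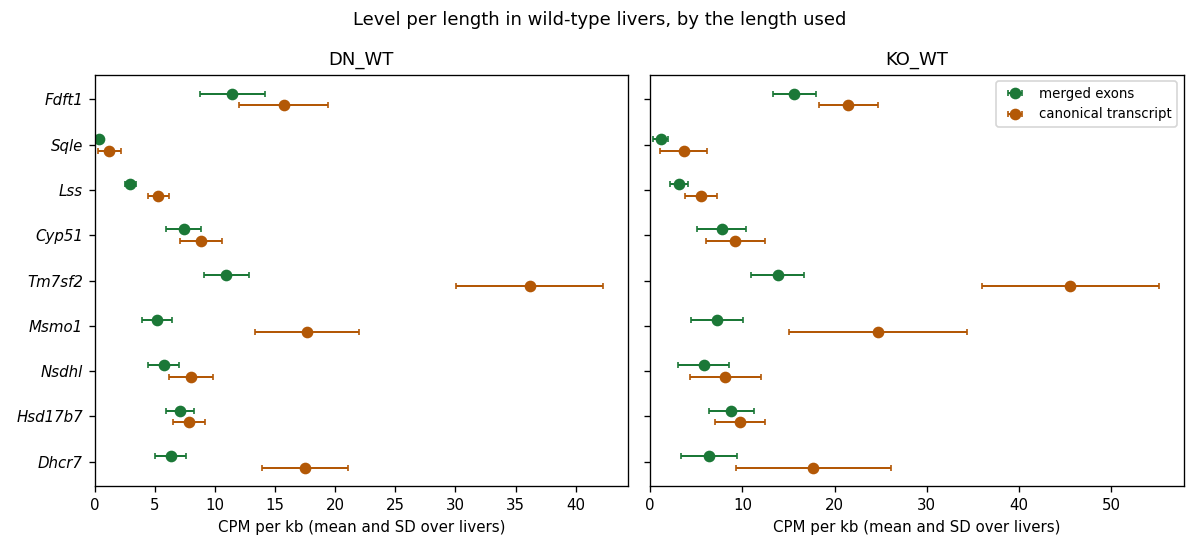
CPM per kb (x axis, linear from 0; mean and SD over 7 DN:WT or 8 KO:WT livers) of each enzyme (y axis), by merged exons (green) and by the canonical transcript (orange). Sqle is the lowest under either length in both panels, and the order of the others changes with the length.

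Several of the genes share exons with a gene on the other strand, which these strand-specific counts keep apart. These include Fdft1 with Ctsb over 1184 bases, Cyp51 with Akap9 over 1253 and Sqle with Washc5 over 470. In GRCm39 Fdft1 lies on the minus strand of chromosome 14 (63382189 to 63417027), Sqle on the plus strand of chromosome 15 (59186869 to 59203043), Lss on the plus strand of chromosome 10 (76367298 to 76392976), Cyp51 on the minus strand of chromosome 5 (4123416 to 4154751), Tm7sf2 on the minus strand of chromosome 19 (6112851 to 6118403), Msmo1 on the minus strand of chromosome 8 (65170603 to 65186830), Nsdhl on the plus strand of chromosome X (71961712 to 72002129), Hsd17b7 on the minus strand of chromosome 1 (169777093 to 169796813) and Dhcr7 on the plus strand of chromosome 7 (143376740 to 143402149). Counts of both strands together gave the same calls for all 9 in every comparison. They moved the log2 change of Sqle in KO:HOM from -1.17 to -0.85.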

How the data were processed

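Livers were profiled by stranded poly(A) RNA-seq, with strain given as C57BL/6J. The authors aligned reads with STAR 2.5.0a to GRCm39, per the labels, and deposited raw counts per gene for each liver without normalization. Sense-strand counts were used (6.97 to 8.62 times the antisense total per liver); the authors' own analysis used DESeq2. All libraries carried Y-linked and nearly no Xist reads. Of these sex-linked genes 4 were tested, and all 4 were called lower in DN:HOM, against 30% of all genes tested. Their sum with Xist was 161 to 189 CPM in DN:HOM and 209 to 229 CPM in DN:WT. In KO:HOM 0 of the 4 were called, and the cause was not tested. Gene symbols, positions and overlaps came from GENCODE vM39, a later release than that counted, and 98.8% of identifiers matched.

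Counts were analysed with edgeR 4.0.16 in R 4.3.3: genes with low counts were removed (filterByExpr), libraries were scaled by TMM (factors 1.21 to 1.34 in DN:HOM and 0.92 to 0.97 in DN:WT over the livers used), and group means were fitted with the quasi-likelihood test. P-values are 2-sided and were Benjamini-Hochberg adjusted over all genes tested, with a threshold of 0.05; 95% intervals are approximate. Log2 CPM used a prior count of 2. The test was also run on simulated counts, but the outcome is not given and no value here rests on it. The livers DN:WT animal 10 and DN:HOM animal 12 were left out of the main fit; by matching to the counts, the study's source values for 7 bile acid genes were found to hold the other 22 knock-in livers. Replicates are separate animals. Alternatives were all 48 livers, DESeq2 1.42.0, upper-quartile scaling, no count filter, both strands, each study alone and leaving out the 2 shallow libraries, and, chosen after seeing the data, library size alone. The named genes were the 9 enzymes, Nr1h3, the further sterol branch, mevalonate and regulation lists, the 10 genes most and 3 least like the enzymes, and genes overlapping on the same strand; a few genes the rule names are not reported here. Members and lists were chosen with earlier results of these data known. Marker counts are given without the share of all genes called higher. Marker lists also covered T cells (3 of 5 higher in DN:HOM, 5 of 5 in KO:HOM), B cells (1 of 4 lower in DN:HOM, 0 called in KO:HOM), neutrophils (2 of 2 tested higher in both), endothelium (1 of 4 higher and 2 lower in DN:HOM, 1 higher in KO:HOM) and adrenal tissue (0 of 1 tested called in both).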

Additional observations from a re-analysis of the deposited data

Results flagged for a closer look

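Values that stood apart from the rest of their group by Dixon's test at the 95% level were found in 10 of 72 sets of livers tested, a test that chance alone passes in about 1 of 20 sets. The library labelled DN:HOM animal 12 stood above the other 7 for Lss (31.3 against at most 13.4 CPM), Tm7sf2 (52.4 against 16.5), Msmo1 (45.4 against 20.6), Nsdhl (21.96 against 9.19), Hsd17b7 (39.1 against 15.98) and Dhcr7 (51.8 against 29.9). The library labelled DN:WT animal 10 stood below for Tm7sf2, at 13.7 CPM against at least 42.5. DN:WT animal 17 had 9.34 CPM of Sqle, against at most 4.66 among 8 livers and 3.14 among 7. DN:HOM animal 34 had 29.6 CPM of Cyp51, against at most 21.9 in the 6 others of the main set.

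The homozygous change differed between the studies for Hsd17b7 (-0.71 on the log2 scale, DN minus KO), Lss (-0.61) and Tm7sf2 (-0.70), by the interaction term over 46 livers, and for none of them over 48.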

How the results depend on the processing

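The 54 changes of single enzymes (9 in 6 comparisons) were refitted under up to 8 other settings, 414 values in all, of which 385 kept both sign and side of the threshold, 17 lost a call, 1 gained a call and 11 changed sign. DESeq2 and counts of both strands changed none of the calls. Over all 48 livers the median log2 change of the 9 in DN:HOM was -0.96 and with library size alone -0.89, against -1.33, and with counts of both strands the median in KO:HOM was -0.85, against -1.08. For the homozygous difference between studies, 0 of 9 were lower over 48 livers and 0 with library size alone, against 3, and with library size alone 1 was higher and the median was -0.0025. Signs turned for uncalled values only. With library size alone these were Sqle in DN:HOM (0.33), the homozygous difference of Msmo1 (0.0675) and Nsdhl (0.12), and the heterozygous difference of Msmo1 (0.0292) and Nsdhl (0.0102). Over 48 livers they were the homozygous difference of Msmo1 (0.0694) and Nsdhl (0.15) and the heterozygous difference of Tm7sf2 (0.0548), Msmo1 (0.0858) and Nsdhl (0.0629), and without the 2 shallow libraries the heterozygous difference of Msmo1 (0.0271). The cause of these shifts was not tested. The homozygous difference of Lss was also lost with upper-quartile scaling (adjusted p = 0.06) and without the count filter (0.062). Library size alone moves the median change of all genes in DN:HOM from -0.01 to 0.42. No paired analysis was possible because the replicate numbers were given in accession order and link no animals. Sqle had the fewest reads of the 9, a median of 60 per liver, and what depth adds to its spread was not tested.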
